A study of Mus musculus with 6 samples.

Results

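The YAP-TEAD genes examined here comprised 9 named genes of 39179 listed: the transcriptional co-activators Yap1 and Wwtr1, their DNA-binding partner Tead1, the pathway regulators Lats2, Ajuba and Amotl2, and the target genes Ctgf, Cyr61 and Ankrd1. They were taken by symbol, irrespective of their values, and all 9 passed the filter on low values, an RPKM (reads scaled to gene length and library depth) of at least 0.5 in at least 2 of 6 libraries. RNA sequencing was performed on Ocy454 cells, a murine osteocytic line that is a single-cell subclone, so every library came from 1 clone. The cells were expanded at 33 °C to confluence and held at 37 °C for 14 days, and the medium was replaced 24 h before collection. They were exposed for 4 h to vehicle (PBS with 25 mM HCl), to 1 nM parathyroid hormone 1-34 (PTH), or to 0.5 µM YKL-05-093, a small-molecule inhibitor of salt-inducible kinases (SIKs), with 2 libraries for each condition. The vehicle is given as the sample records describe it, whereas the study's methods name DMSO as the solvent of compounds used in vitro. The comparisons asked how these genes responded to the hormone, to the kinase inhibitor, and to one relative to the other.

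YAP, encoded by Yap1, and TAZ, encoded by Wwtr1, are co-activators that carry signals from cell shape, matrix stiffness and cell contact to the nucleus, where they act through TEAD proteins bound to DNA. The Hippo kinase cascade, which ends in the LATS kinases, phosphorylates YAP and TAZ and holds them in the cytoplasm. Regulation therefore acts largely on protein location, which RNA levels do not report, and the expression of target genes such as Ctgf and Cyr61 is commonly read as the pathway's output.

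The deposited RPKM values gave totals of 17505798 to 27983585 reads per library. Reads recovered gene by gene made up 99.66% to 99.69% of these totals, and mitochondrial genes took 11.7% to 16.5% of the recovered reads. The vehicle libraries stood apart from each other. Their median absolute log2 difference over 14264 genes was 0.33, against 0.11 between the PTH libraries and 0.10 between the YKL-05-093 libraries. The difference followed gene length: the median of vehicle replicate 1 minus replicate 2 was -0.30 for genes under 2000 bases and 0.50 for genes of 6000 bases or more, of which 92.3% were higher in replicate 1. The corresponding medians for long genes were 0.06 in the PTH pair and -0.03 in the YKL-05-093 pair. The cells expressed the osteoblast-lineage genes Runx2, Sp7, Pdpn and Pth1r, the PTH receptor, whose RPKM was 33.4 to 70.7. The late osteocyte markers Sost, Mepe and Fgf23 were at or near 0, with Sost at 0 to 0.0519 RPKM. Of the other osteocyte markers, Dmp1 was at 0.376 to 1.155 RPKM. Phex was at 1.82 and 0.764 RPKM in vehicle, at 4.93 and 1.91 after PTH and at 2.72 and 4.80 after YKL-05-093, without overlap between vehicle and either treatment. It was 2.64-fold above vehicle by mean RPKM after PTH and 2.91-fold after YKL-05-093, with adjusted p of 0.305 and 0.247 by limma. None of 7 muscle markers passed the filter, and their summed RPKM was 0.454 to 0.759, while the defining markers Myod1, Cdh5 of endothelium and Lep of fat were at 0 in every library. Among markers of other cell types, the cartilage gene Col2a1 rose with PTH, from 0.601 to 1.62 mean RPKM, and the endothelial receptor gene Kdr with YKL-05-093, from 0.529 to 1.58. The Col2a1 call was lost under 5 of 16 alternatives (adjusted p up to 0.386 without PTH replicate 1) and the Kdr call under 7 of 16 (up to 0.543 without YKL-05-093 replicate 1). The summed RPKM of the 4 cartilage markers was 2.01 to 2.60 in vehicle, 3.41 to 3.42 after PTH and 3.52 to 3.69 after YKL-05-093, and that of the 4 endothelial markers 0.724 to 1.14, 1.14 to 1.44 and 1.95 to 2.17. Blood and fat markers summed to 3.70 to 4.44 and 1.10 to 2.32 RPKM. Of the lineage genes, Pdpn and Bglap rose and Sp7 fell with PTH, calls that were lost without either PTH library (adjusted p from 0.109 to 0.457). The part of these markers in the results was not tested.

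**Figure D1:**
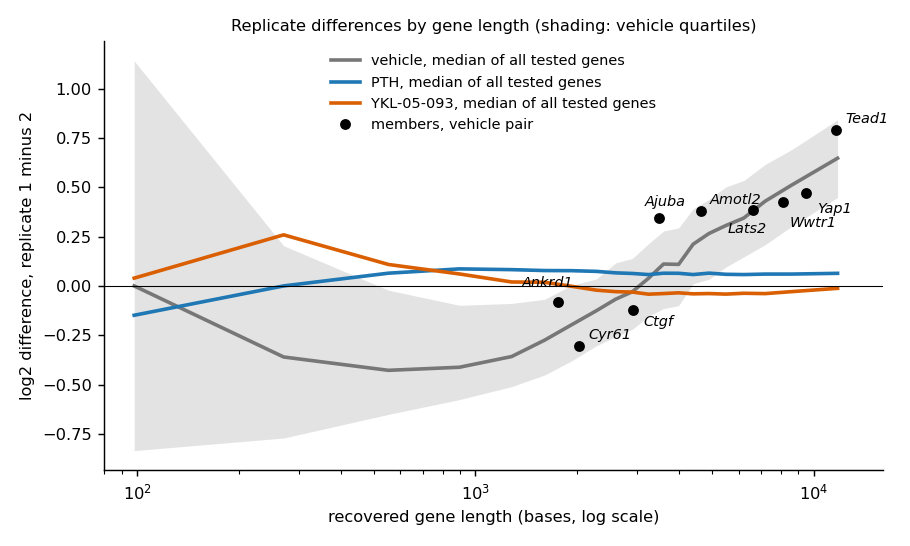
Log2 difference between replicate 1 and replicate 2 of each condition, against the recovered gene length in bases on a log scale. Lines are medians of all tested genes, in 20 bins of length, for the vehicle, PTH and YKL-05-093 pairs, shading marks the vehicle quartiles, and points are the 9 members in the vehicle pair. The vehicle line climbs to 0.65 at the longest genes while the other lines stay near 0 among long genes, and Tead1, Yap1, Wwtr1 and Lats2 lie along its high end.

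The members are unequal in length, and the vehicle libraries placed them differently. The recovered length was 11626 bases for Tead1, 9480 for Yap1, 8100 for Wwtr1 and 6618 for Lats2, and the ratio of vehicle replicate 1 to replicate 2 was 1.75, 1.39, 1.35 and 1.31 for these genes. The shorter target genes went the other way, with ratios of 0.917 for Ctgf, 0.809 for Cyr61 and 0.945 for Ankrd1. Amotl2, at 4625 bases, and Ajuba, at 3495 bases, had ratios of 1.30 and 1.27, near that of Lats2. The cause of these differences was not tested. Values without either vehicle library are given where they bear on a result, and the comparison of PTH with YKL-05-093 used neither.

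The expression of the pathway itself was led by a target gene. Cyr61 was the highest of the 9 in every condition, at 87.8 ± 13.1 RPKM in vehicle (SD, n = 2), followed by Amotl2 at 31.4 ± 5.82 and Wwtr1 at 17.6 ± 3.68. Ctgf, a close relative of Cyr61, was the lowest at 3.20 ± 0.196 RPKM. Between them, Yap1 and Lats2 overlapped in vehicle, as did Ajuba and Tead1, so their order there was not resolved. Wwtr1 lay above Yap1 in every library, with 17.02 ± 0.522 against 10.4 ± 0.258 RPKM after PTH and 15.8 ± 1.16 against 10.6 ± 0.752 RPKM after YKL-05-093.

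**Figure D2:**
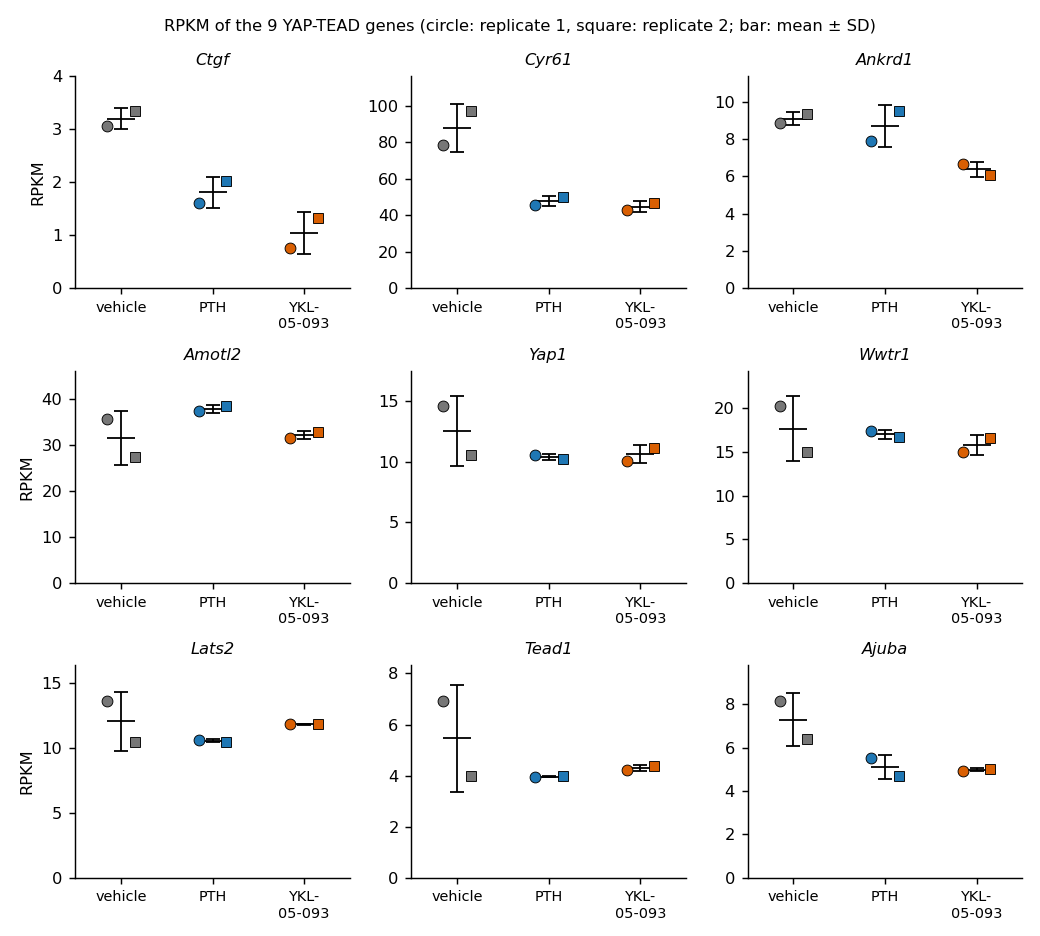
RPKM of the 9 members in the 6 libraries, 1 panel per gene with its own axis from 0, in vehicle, PTH and YKL-05-093 (circle, replicate 1; square, replicate 2; bar, mean ± SD, n = 2). Both treated pairs of Ctgf and Cyr61 lie below both vehicle libraries, whereas the treated libraries of Yap1, Wwtr1 and Lats2 lie within or next to the vehicle range.

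In the comparison of PTH with vehicle, the target genes Ctgf and Cyr61 had the largest differences among the 9 members, and both were lower. Cyr61 was 1.83-fold and Ctgf 1.77-fold lower by mean RPKM. The third target, Ankrd1, did not separate, and neither the co-activators nor Lats2 did. No member was called by limma on RPKM values or by its voom on the recovered reads, where a call required an adjusted p under 0.05 by limma and a change of more than 2-fold. This criterion called 1.91% of the 14261 genes tested, 1.09% higher and 0.813% lower.

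Ctgf (chr10:24595442-24598683, plus strand, GRCm38) encodes CCN2, a secreted matricellular protein, and an exon of Gm15270 overlaps it on the opposite strand. Its RPKM was 3.06 and 3.33 in the vehicle libraries and 1.60 and 2.01 in the PTH libraries, from 101 to 272 recovered reads. Both PTH libraries lay below both vehicle libraries. The log2 fold change on the log2(RPKM + 0.1) scale was -0.79 (SE 0.19, 95% interval -1.24 to -0.35), and the adjusted p was 0.102 by limma. The Ctgf value was -0.86 without vehicle replicate 1 and -0.73 without vehicle replicate 2. Over all libraries left out it ran from -0.95 to -0.64. The adjusted p of Ctgf was 0.0196 by limma with replicate number as a block and 0.0484 with the length trend removed. Under the other settings that left out no library, it ran from 0.0968 by voom to 0.276 by limma without a filter on low values. With 2 libraries against 2, an exact permutation test could not go below p = 0.333, so the linear model across all genes was used. The labels name no separate cultures, so these p-values measure the spread between libraries, which may be technical.

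Cyr61 (chr3:145646976-145649981, minus strand) encodes CCN1, a secreted protein of the same family. It stood at 78.5 and 97.1 RPKM in vehicle and at 46.0 and 49.99 RPKM after PTH. The groups did not overlap, and the gap between them exceeded the spread within either. The log2 fold change was -0.86 (SE 0.18, 95% interval -1.29 to -0.44), with an adjusted p of 0.0682 by limma. The Cyr61 value was -1.02 without vehicle replicate 1 and -0.71 without vehicle replicate 2. These were its extremes over all libraries left out. The adjusted p of Cyr61 was 0.0164 by limma with 1 fit of all 6 libraries and 0.0164 with replicate number as a block. With the length trend removed it was 0.00443. Under the other settings that left out no library, it ran from 0.0616 by voom to 0.211 by limma without a filter on low values. The change stayed under 2-fold in all of these settings.

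Ankrd1 (chr19:36111961-36120099, minus strand) encodes an ankyrin-repeat protein best known from stretched muscle. Its RPKM was 8.85 and 9.36 in vehicle and 7.91 and 9.49 after PTH, so the PTH libraries enclosed the vehicle libraries. The log2 fold change was -0.07 (95% interval -0.47 to 0.33; adjusted p = 0.908 by limma).

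Among the regulators, Amotl2 (chr9:102716672-102733418, plus strand) encodes an angiomotin-family scaffold that binds YAP and is itself a YAP-TEAD target. Its RPKM was 35.6 and 27.3 in vehicle and 37.3 and 38.5 after PTH. The PTH libraries were the higher pair, but by less than the vehicle libraries differed from each other, and the log2 fold change of 0.28 had an adjusted p of 0.630 by limma. It was 0.47 without vehicle replicate 1 (adjusted p = 0.0229) and 0.09 without vehicle replicate 2 (adjusted p = 0.393). Ajuba (chr14:54567472-54577558, minus strand), a LIM-domain protein that restrains LATS kinases, was at 8.17 and 6.42 RPKM in vehicle and at 5.51 and 4.71 RPKM after PTH. Its groups did not overlap, with a log2 fold change of -0.50 (95% interval -0.94 to -0.06) and an adjusted p of 0.304 by limma. Without vehicle replicate 1 it was -0.33 (adjusted p = 0.180) and without vehicle replicate 2 it was -0.67 (adjusted p = 0.0246). Lats2 (chr14:57689662-57758388, minus strand), a kinase that phosphorylates YAP and TAZ and shares exon sequence with Gm49361, was at 13.7 and 10.4 RPKM in vehicle and at 10.6 and 10.5 RPKM after PTH. The PTH libraries of Lats2 lay between the vehicle libraries, near the lower one (log2 fold change -0.18, adjusted p = 0.766 by limma). Without vehicle replicate 1 the value was 0.016 and without replicate 2 it was -0.37 (adjusted p = 0.0245).

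The co-activators overlapped between PTH and vehicle. Yap1 (chr9:7931999-8004596, minus strand), overlapped on the opposite strand by Gm20416, was at 14.6 and 10.5 RPKM in vehicle and at 10.6 and 10.2 RPKM after PTH (log2 fold change -0.25, 95% interval -0.72 to 0.22). The Yap1 value was -0.016 without vehicle replicate 1 and -0.49 without vehicle replicate 2 (adjusted p = 0.0144 by limma). Wwtr1 (chr3:57455649-57575910, minus strand) was at 20.2 and 15.03 RPKM in vehicle and at 17.4 and 16.7 RPKM after PTH (log2 fold change -0.04, 95% interval -0.50 to 0.43), and its value was 0.18 without vehicle replicate 1 and -0.25 without vehicle replicate 2. For these co-activators, a change of 2-fold in either direction lay outside the interval. Tead1 (chr7:112679318-112906807, plus strand) was at 6.94 and 3.97 RPKM in vehicle and at 3.95 and 3.97 RPKM after PTH, and its log2 fold change of -0.40 rested on vehicle replicate 1. Without that library the Tead1 value was -0.00375, and without vehicle replicate 2 it was -0.79 (adjusted p = 0.00723 by limma).

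Over the 9 members, PTH libraries lay above both vehicle libraries for 1 member and below both for 4, which were Ctgf, Cyr61, Tead1 and Ajuba. Among all genes tested, 19.1% lay above and 24.0% below without overlap. The median log2 fold change of the members was -0.25, beside -0.03 for all genes. An unadjusted p under 0.05 was found for 3 members, all lower, and for 13.3% of all genes, 6.41% higher and 6.86% lower. An adjusted p under 0.05 at any fold was found for none of the 9 and for 2.19% of all genes, 1.26% higher and 0.940% lower. These RNA levels come from whole cultures, in which fewer cells expressing a gene and less RNA per cell cannot be told apart.

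In the comparison of YKL-05-093 with vehicle, the same vehicle libraries were used, so the values are given side by side with those for PTH and not as a separate sign of the same pattern. Ctgf had the largest difference of the 9 and Cyr61 the next. Ctgf was 3.07-fold, Cyr61 1.96-fold, Ajuba 1.46-fold and Ankrd1 1.43-fold lower by mean RPKM. None of the 9 was called by limma, nor by its voom on the recovered reads, against 0.666% of 14255 genes tested, 0.393% higher and 0.274% lower.

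Ctgf was at 0.761 and 1.32 RPKM after YKL-05-093, from 45 and 80 recovered reads, below every vehicle and PTH library. The log2 fold change was -1.57 (SE 0.27, 95% interval -2.20 to -0.94), and the adjusted p was 0.0690 by limma. The inhibitor libraries themselves differed by 0.72 on the log2 scale. Ctgf was called when all 6 libraries shared 1 estimate of the spread (adjusted p = 0.0212 by limma). It was also called when YKL-05-093 replicate 2 was left out (log2 fold change -1.94, adjusted p = 0.0163 by limma), but not when replicate 1 was (-1.21, adjusted p = 0.559). Its adjusted p ran from 5.93e-07 to 0.559 over all 16 alternatives.

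Cyr61 was at 42.8 and 46.9 RPKM after YKL-05-093, close to its level after PTH and below both vehicle libraries. The log2 fold change was -0.96 (SE 0.18, 95% interval -1.39 to -0.54; adjusted p = 0.0905 by limma). Ankrd1 was at 6.65 and 6.09 RPKM, with the inhibitor libraries below the other 4. Its log2 fold change from vehicle was -0.51 (SE 0.16, 95% interval -0.89 to -0.13), with an adjusted p of 0.374 by limma. Ajuba was at 4.94 and 5.03 RPKM, also without overlap (log2 fold change -0.53, 95% interval -0.95 to -0.11; adjusted p = 0.414 by limma).

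The remaining 5 members overlapped between YKL-05-093 and vehicle. Amotl2 was at 31.5 and 32.8 RPKM, Yap1 at 10.1 and 11.2 RPKM and Wwtr1 at 14.98 and 16.6 RPKM after YKL-05-093. Lats2 was at 11.9 and 11.8 RPKM and Tead1 at 4.21 and 4.37 RPKM. Their log2 fold changes ran from -0.29 for Tead1 to 0.04 for Amotl2, and their 95% intervals reached from -0.90 for Tead1 to 0.49 for Amotl2. The directions of these 5 were not stable: Yap1, Wwtr1, Lats2 and Tead1 had values of 0.01 to 0.18 without vehicle replicate 1, and Amotl2 was at -0.15 without vehicle replicate 2.

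None of the 9 lay above both vehicle libraries after YKL-05-093 and 4 lay below both, namely Ctgf, Cyr61, Ankrd1 and Ajuba. Of all genes tested, 15.7% lay above and 22.1% below. The median log2 fold change of the members was -0.29, beside -0.04 for all genes. The same 4 genes had an unadjusted p under 0.05, all lower, as did 8.66% of all genes, 3.90% higher and 4.76% lower.

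**Figure D3:**
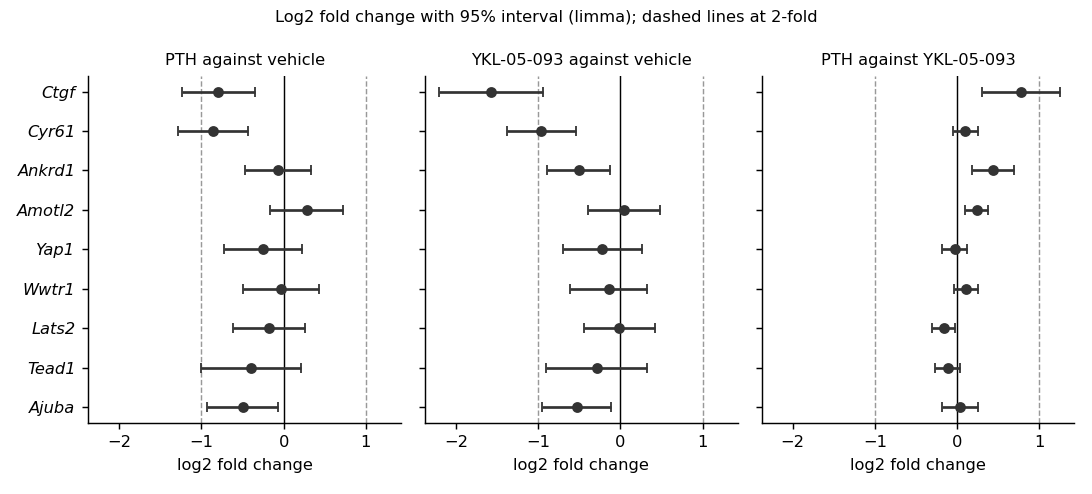
Log2 fold change of the 9 members with its 95% interval (limma), for PTH against vehicle, YKL-05-093 against vehicle and PTH against YKL-05-093. Dashed lines mark 2-fold. Ctgf and Cyr61 lie left of 0 in both comparisons with vehicle, and in the comparison of PTH with YKL-05-093 the intervals of Ctgf, Ankrd1 and Amotl2 lie right of 0.

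The direct comparison of PTH with YKL-05-093 does not use the vehicle libraries. Ctgf, Ankrd1 and Amotl2 were higher after PTH than after the SIK inhibitor, with an adjusted p under 0.05 in each case but by less than 2-fold. Cyr61, which was below vehicle by similar amounts after both agents, differed little between them. No member was called at more than 2-fold, against 1.21% of 14255 genes, 0.737% higher and 0.470% lower. An adjusted p under 0.05 at any fold was found for 3 of 9 members, all higher with PTH, and for 10.0% of all genes, 4.88% higher and 5.14% lower.

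Ctgf, at 1.60 and 2.01 RPKM after PTH and at 0.761 and 1.32 after the inhibitor, differed by 0.78 on the log2 scale (SE 0.22, 95% interval 0.30 to 1.25; adjusted p = 0.0369 by limma). The lowest PTH library lay above the highest inhibitor library. Ankrd1, at 7.91 and 9.49 RPKM against 6.65 and 6.09, differed by 0.44 (SE 0.12, 95% interval 0.19 to 0.69; adjusted p = 0.0258 by limma). Amotl2, at 37.3 and 38.5 RPKM against 31.5 and 32.8, differed by 0.24 (SE 0.07, 95% interval 0.10 to 0.37; adjusted p = 0.0284 by limma). Leaving out any 1 of these 4 libraries lost an adjusted p under 0.05, which then ran from 0.0874 to 0.522 for Ctgf, from 0.196 to 0.397 for Ankrd1 and from 0.211 to 0.302 for Amotl2. Over all 16 alternatives the range was 0.0010 to 0.522 for Ctgf, 0.0041 to 0.397 for Ankrd1 and 0.0089 to 0.860 for Amotl2, the last with 1 fit of all 6 libraries. The log2 difference of Ctgf was 0.42 without YKL-05-093 replicate 1 and 1.14 without replicate 2.

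Cyr61 differed by 0.10 on the log2 scale (95% interval -0.06 to 0.25; adjusted p = 0.486 by limma), and its PTH and inhibitor libraries overlapped. Lats2 was the lower member with PTH that came nearest to the threshold, at -0.16 (95% interval -0.31 to -0.02; adjusted p = 0.148 by limma). Yap1, Wwtr1, Tead1 and Ajuba had values from -0.11 to 0.11, with intervals that reached from -0.26 for Tead1 to 0.26 for Wwtr1. PTH libraries lay above both inhibitor libraries for 4 members and below both for 2, and 26.3% and 23.7% of all genes did so. The median log2 fold change of the members was 0.10, beside 0.01 for all genes.

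The promoters of the members were then read for the TEAD recognition letters, because TEAD proteins tether YAP and TAZ to DNA. Of the 9 members, 7 matched an entry of the RefSeq promoter table (GRCm38.p6), and 250 bases upstream of each annotated start were searched on both strands. Ctgf and Tead1 did not match. The sequences below are those of the targets Cyr61, Ankrd1 and Amotl2 and of Ajuba, which lay below vehicle after both treatments. They read 5′ to 3′ on the gene's strand, and capitals mark the letters CATTCC or their reverse complement GGAATG. The Cyr61 window is chr3:145649986-145650235 (minus strand), that of Ankrd1 is chr19:36119845-36120094 (minus strand), that of Amotl2 is chr9:102717554-102717803 (plus strand) and that of Ajuba is chr14:54577662-54577911 (minus strand).
Cyr61: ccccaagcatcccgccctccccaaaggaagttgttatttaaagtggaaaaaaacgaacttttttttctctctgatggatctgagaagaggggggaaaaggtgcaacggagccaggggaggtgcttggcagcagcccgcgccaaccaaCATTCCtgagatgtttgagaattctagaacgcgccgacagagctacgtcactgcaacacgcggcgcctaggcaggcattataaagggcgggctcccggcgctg
Ankrd1: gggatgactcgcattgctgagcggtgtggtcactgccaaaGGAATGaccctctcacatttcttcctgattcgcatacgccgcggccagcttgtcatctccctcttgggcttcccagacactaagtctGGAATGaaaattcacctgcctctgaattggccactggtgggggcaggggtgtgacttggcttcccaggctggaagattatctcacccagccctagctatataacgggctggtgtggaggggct
Amotl2: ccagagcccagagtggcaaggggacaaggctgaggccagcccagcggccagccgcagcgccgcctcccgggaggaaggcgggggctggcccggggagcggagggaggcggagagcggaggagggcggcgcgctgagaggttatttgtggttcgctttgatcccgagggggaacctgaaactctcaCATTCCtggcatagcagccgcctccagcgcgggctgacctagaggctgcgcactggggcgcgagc
Ajuba: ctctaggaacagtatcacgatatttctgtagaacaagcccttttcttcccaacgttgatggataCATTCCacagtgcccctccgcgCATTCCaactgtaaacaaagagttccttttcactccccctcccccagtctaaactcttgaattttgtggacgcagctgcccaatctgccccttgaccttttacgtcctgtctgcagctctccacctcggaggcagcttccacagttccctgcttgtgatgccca

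Positions count from the RefSeq starts, which can differ from the ends of the gene spans given above, taken from GENCODE. The windows of Ankrd1, Amotl2 and Lats2 lie inside those spans. The letters CATTCC stood 103 to 98 bases upstream of the Cyr61 start and 65 to 60 bases upstream of the Amotl2 start. Ankrd1 had 2 matches, at 210 to 205 and 123 to 118 bases upstream, both on the opposite strand. Ajuba had 2, at 186 to 181 and 164 to 159 bases upstream. Yap1 and Wwtr1 had 1 each and Lats2 had none, so 6 of 7 members with an entry held the letters. They were present in 12.6% of 32851 promoters of this length, and 1.02% held 2 or more. TGACG, the core of the cyclic AMP response element, stood on the opposite strand 58 to 54 bases upstream of the Cyr61 start and also in the Lats2 promoter, as in 17.8% of all promoters. TGANTCA, the AP-1 letters, and the SRF box (CArG) were in none of the 7, and in 6.75% and 1.47% of all promoters. A match describes the letters only, and binding was not measured.

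**Figure D4:**
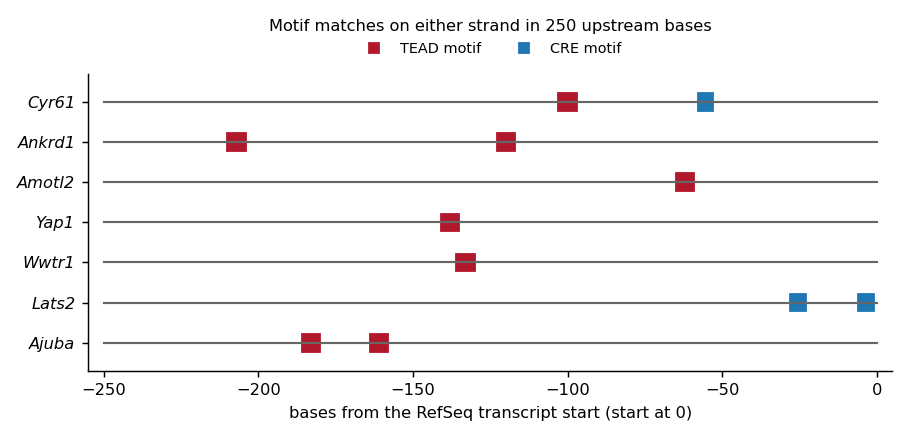
Position of TEAD (CATTCC) and cyclic AMP response element (CRE, TGACG) letters, on either strand, in 250 bases upstream of the RefSeq start of 7 members, in bases from the start at 0. The first listed start is drawn where a gene has several. TEAD letters occur in 6 of the 7 rows, and Ankrd1 and Ajuba have 2 each.

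In a wider set of known YAP-TEAD targets, genes were called in both directions. Of 17 listed genes, 16 were tested. After PTH, 1 rose and 1 fell, where 1.91% of all genes were called, and after YKL-05-093, none rose and 2 fell, where 0.666% of all genes were called. F3, which encodes tissue factor, the trigger of blood coagulation, had 52.6 and 50.3 RPKM in vehicle. It was at 17.4 and 17.4 RPKM after PTH and at 21.4 and 24.1 RPKM after YKL-05-093, so all 4 treated libraries were below both vehicle libraries. F3 fell by 1.56 on the log2 scale with PTH (SE 0.16; adjusted p = 0.00405 by limma) and by 1.17 with YKL-05-093 (SE 0.16; adjusted p = 0.0337). F3 was not called with PTH without either PTH library (adjusted p = 0.247 and 0.266) or with YKL-05-093 without either inhibitor library (0.973 and 0.439) or vehicle replicate 1 (0.0635), while its log2 fold changes stayed between -1.56 and -1.09. Without a filter on low values its adjusted p was 0.0562 with PTH and 0.169 with YKL-05-093, and for YKL-05-093 it was 0.0511 with a filter of 0.1 RPKM and 0.0961 with the spread trended on the mean value.

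Fjx1, which encodes a secreted protein linked to planar polarity, had 2.71 and 3.57 RPKM in vehicle. PTH libraries held 1.62 and 1.298 RPKM and YKL-05-093 libraries 0.854 and 1.01 RPKM. It fell by 1.64 with YKL-05-093 (SE 0.23; adjusted p = 0.0341 by limma), and its value with PTH was -1.05 (adjusted p = 0.0669). Its call was lost without vehicle replicate 1 (adjusted p = 0.0808) or YKL-05-093 replicate 1 (adjusted p = 0.358). It was also lost with a pseudocount of 1 RPKM (0.0538), without a filter on low values (0.2002), with a filter of 0.1 RPKM (0.0519) and with the spread trended on the mean value (0.119). Gadd45a, a stress-response gene linked to DNA repair and growth arrest, went the other way. It was at 1.51 and 1.72 RPKM in vehicle, at 8.50 and 7.83 after PTH and at 3.21 and 3.62 after YKL-05-093. Gadd45a rose by 2.27 on the log2 scale with PTH (SE 0.18; adjusted p = 0.00168 by limma), and its value with YKL-05-093 was 1.03 (adjusted p = 0.0968). It was also higher with PTH than with the inhibitor, by 1.23 (SE 0.12). Without either PTH library, Gadd45a was not called against vehicle (adjusted p = 0.0655 and 0.0575) or the inhibitor (adjusted p = 0.149 and 0.135). The uncalled members with the highest levels, Axl and Ccdc80, had values of -0.15 and -0.30 with PTH and of -0.13 and -0.03 with YKL-05-093. The median log2 fold change over the 16 was -0.38 with PTH and -0.22 with YKL-05-093, beside -0.03 and -0.04 for all genes.

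**Figure D5:**
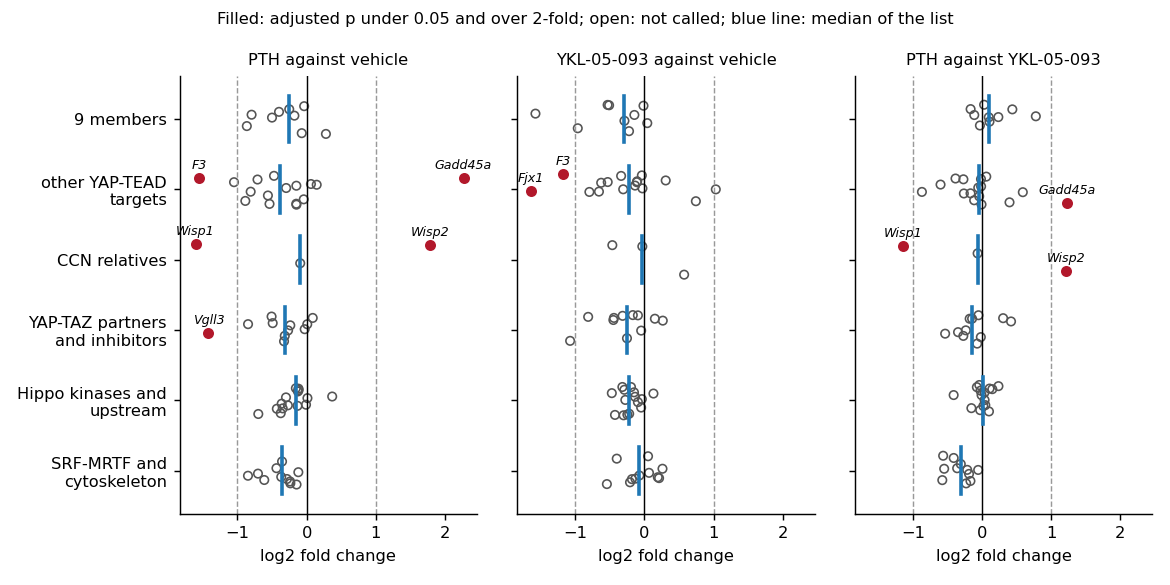
Log2 fold change of each tested gene in 6 lists, for the 3 comparisons. Filled points passed an adjusted p under 0.05 (limma) and 2-fold (dashed lines), open points did not, and blue lines are list medians. Called genes are F3, Fjx1 and Gadd45a among targets, Wisp1 and Wisp2 among CCN relatives and Vgll3 among partners, with none among the 9 members, the Hippo kinases or the SRF-MRTF genes.

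The other members of the CCN family to which Ctgf and Cyr61 belong were split after PTH, with 2 of 3 tested called beside 1.91% of all genes. Wisp1, which encodes CCN4, was at 17.7 and 13.4 RPKM in vehicle, at 5.30 and 4.74 after PTH and at 10.2 and 12.3 after YKL-05-093. It fell by 1.60 with PTH (SE 0.19; adjusted p = 0.00812 by limma), and its value with the inhibitor was -0.46 (adjusted p = 0.588). Wisp2, which encodes CCN5, a family member without the C-terminal domain, was at 18.1 and 19.5 RPKM in vehicle, at 67.8 and 62.2 after PTH and at 29.6 and 26.5 after YKL-05-093. Wisp2 rose by 1.79 with PTH (SE 0.16; adjusted p = 0.00291 by limma), and its value with the inhibitor was 0.58 (adjusted p = 0.270). In the direct comparison Wisp1 was lower with PTH by 1.14 and Wisp2 higher by 1.21, and both were called. Nov, which encodes CCN3, was at 43.4 to 48.9 RPKM in all libraries, with values of -0.09 and -0.03 against vehicle, and Wisp3 was below the filter. Without PTH replicate 1 or 2, neither gene was called against vehicle (adjusted p from 0.142 to 0.321) or against the inhibitor (adjusted p from 0.1198 to 0.152), with the same directions.

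Among 11 tested partners and inhibitors of YAP and TAZ, 1 was called after PTH and none after YKL-05-093, beside 1.91% and 0.666% of all genes. Vgll3, a vestigial-like cofactor that binds TEAD proteins, was at 44.5 and 35.0 RPKM in vehicle, at 14.4 and 15.1 after PTH and at 19.1 and 18.4 after YKL-05-093. All 4 treated libraries lay below both vehicle libraries. Vgll3 fell by 1.42 with PTH (SE 0.18; adjusted p = 0.0110 by limma), and its value with the inhibitor was -1.07 (SE 0.18; adjusted p = 0.0662). Its call was lost without either PTH library (adjusted p = 0.381 and 0.379), at log2 fold changes of -1.38 and -1.45. Tead2, which was the most expressed TEAD gene at 22.1 to 26.6 RPKM, had values of 0.01 and 0.15, and Wbp2, a YAP-binding protein, had 0.09 and 0.27. The list median was -0.32 with PTH and -0.25 with YKL-05-093, beside -0.03 and -0.04 for all genes.

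None of 15 tested Hippo kinases and upstream regulators was called in any of the 3 comparisons. Of all genes, 1.91% were called with PTH, 0.666% with YKL-05-093 and 1.21% between them. None of the 15 had an unadjusted p under 0.05 against vehicle with either agent, beside 13.3% and 8.66% of all genes. Mob1a, a LATS cofactor, was at 42.3 to 58.6 RPKM over the libraries and had values of -0.27 and -0.24. Map4k4, a kinase that activates LATS, was at 30.1 to 47.2 RPKM. In the direct comparison an adjusted p under 0.05 was found for 1 higher and 1 lower gene, Frmd6 at 0.24 and Fat4 at -0.41. Both were named after their values were seen. Of all genes, 4.88% were higher and 5.14% lower at such an adjusted p.

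Serum response factor (SRF) and its actin-sensing cofactors share cytoskeletal inputs with YAP and TAZ, so their genes were set beside the members. Of 11 tested, none was called against vehicle with either agent, beside 1.91% of all genes with PTH and 0.666% with YKL-05-093. All 11 had a negative value with PTH, with a median of -0.35 beside -0.03 for all genes. Only Srf itself had an adjusted p under 0.05 (log2 fold change -0.85, adjusted p = 0.0456 by limma), and it was named after its values were seen. With PTH, 1.26% of all genes were higher and 0.940% lower at such an adjusted p. Against the inhibitor, all 11 were lower with PTH, 6 with an adjusted p under 0.05 and none by more than 2-fold, and 10 did not overlap. Of all genes, 5.14% were lower at such an adjusted p and 23.7% were lower without overlap. Myl9, a myosin light chain, was at 119.5 and 155.1 RPKM in vehicle, at 83.4 and 83.9 after PTH and at 125.1 and 124.0 after YKL-05-093. The PTH libraries of Myl9 were the lowest, and the difference from the inhibitor was -0.57 (SE 0.06). Acta2, smooth-muscle actin, differed by -0.41 (SE 0.07). The direction was opposite to that of Ctgf, Ankrd1 and Amotl2 in the same comparison.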

How the data were processed

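RNA sequencing libraries of Ocy454 cells, 2 for each of 3 conditions, were made with a directional kit. The authors demultiplexed with CASAVA (version 1.7), aligned reads to the mouse genome (GRCm38) with STAR, counted reads per gene with HTSeq and deposited a matrix of RPKM values. How gene length was set and whether counting used strand are not given in the sources used here. The study's methods tested counts, whereas the deposited values are RPKM, so limma (version 3.58.1, R 4.3.3) was run on log2(RPKM + 0.1). Fold changes on this scale understate the change of low genes. Genes needed 0.5 RPKM in at least 2 of 6 libraries, and each comparison was fitted on its own 4 libraries without covariates.

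The prior variance was trended on the mean recovered reads, p-values were two-sided and adjusted by Benjamini-Hochberg over all genes tested, and a call required an adjusted p under 0.05 and over 2-fold. Whole reads were recovered from the steps of the RPKM values within a relative tolerance of 1e-07, for all 26214 genes above 0, with 100% of the recovered lengths whole to within 0.001 bases. A count test was not run, and limma's voom on these reads was an alternative. The procedures were tested on simulated data without a length trend between replicates, so the trend in the vehicle pair was not covered. At the lowest and highest depth, 3 reads on a gene of 2000 bases equal 0.0857 and 0.0536 RPKM. These and other limits cover counting error only.

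Named genes were the 9 members and, from each gene list, those called in any comparison (at most 6) and up to 2 uncalled genes with the highest mean RPKM. For a called member the 3 genes of most similar pattern would have been named. Cell markers at or near 0, and Dmp1 and Phex, fall outside this rule and were named after their values were seen, and other such genes are said to be so. The members, lists and settings were chosen with earlier results of these data known. Replicate numbers came from the labels. Correlations of the replicate deviations between conditions were -0.03, -0.05 and -0.05. Those with vehicle include the length trend of its pair, so they cannot show whether the numbers pair the libraries. Alternatives were 12 settings and each library left out. Gene positions are from GENCODE M21 and promoters from RefSeq, and the motif letters searched on both strands are given with their results.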

Additional observations from a re-analysis of the deposited data

How the results depend on the processing

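The vehicle libraries and the size of the groups limit these results. Leaving out a library leaves 1 in its group, which is then assumed to vary like the other. Of 720 values under alternatives, 630 kept their direction and side of the threshold, 66 lost and 9 gained a call, and 15 changed sign. The cause was not tested. These values cover the 9 members, which had no call to lose, and the other listed genes that were called. All 66 losses therefore fell on those other genes, where each call was lost under 2 to 7 of 16 alternatives. The correction for the length trend was chosen after seeing the data. Among the 9 members, Ctgf had the fewest recovered reads, 45 in its lowest library.

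Genes called numbered 272 with PTH, 95 with YKL-05-093 and 172 between them. Without a filter on low values limma gave 0, 0 and 149, with 2341 and 1735 genes at an unadjusted p under 0.05 in the first 2 comparisons. With the spread trended on the mean value the first 2 counts were 160 and 6, and YKL-05-093 had 55 with a pseudocount of 1 RPKM and 57 with a filter of 0.1 RPKM. With 1 fit of all 6 libraries, 175 were called with YKL-05-093 and 102 between the agents. With the length trend removed 176 were called with YKL-05-093. Between the agents there were 98 with a pseudocount of 1 RPKM, 542 with a fold limit of 1.5 and 1427 with none. Leaving out 1 library gave 14 to 671 genes with PTH, 11 to 320 with YKL-05-093 and 0 to 155 between the agents, the 0 arising by limma without PTH replicate 1 or 2, where 2132 and 2021 genes had an unadjusted p under 0.05.

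Of the 9 members, none was called in the analysis as reported. With YKL-05-093, 1 (Ctgf) was called with 1 fit of all libraries, with the length trend removed and without YKL-05-093 replicate 2, so the count ran from 0 to 1 over the libraries left out. With PTH it also ran from 0 to 1, Cyr61 being called without vehicle replicate 1. Between the agents, 1 (Ctgf) was called with a fold limit of 1.5 and 3 (Ctgf, Ankrd1 and Amotl2) with none. The replicate block gave 441 genes with PTH, 215 with YKL-05-093 and 196 between the agents, and called 1 member, Ctgf, with YKL-05-093 (adjusted p = 5.93e-07 by limma). Whether the numbers pair the libraries was not settled.

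Values that changed sign were small. With median-of-ratios scaling these were Wwtr1 with PTH at 0.00169 and Lats2 with YKL-05-093 at 0.039, and with the length trend removed Wwtr1 with PTH at 0.13 and with YKL-05-093 at 0.00184, and Lats2 with YKL-05-093 at 0.11. The others arose on leaving out 1 library. With PTH, Wwtr1 ran from -0.25 without vehicle replicate 2 to 0.18 without vehicle replicate 1, Lats2 from -0.37 to 0.016 without the same libraries, and Ankrd1 from -0.20 without PTH replicate 2 to 0.060 without PTH replicate 1. With YKL-05-093, leaving out vehicle replicate 2 or 1 gave -0.46 to 0.014 for Yap1, -0.36 to 0.070 for Wwtr1, -0.20 to 0.18 for Lats2, -0.68 to 0.11 for Tead1 and -0.15 to 0.23 for Amotl2. Between the agents, Ajuba ran from -0.080 without PTH replicate 1 to 0.14 without PTH replicate 2, and Yap1 from -0.10 without YKL-05-093 replicate 1 to 0.041 without replicate 2.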

Other observations

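The genes whose log2 levels followed those of Ctgf and Cyr61 most closely over the 6 libraries were looked up as a description, and they were chosen after their values were seen. The genes searched had a mean of at least 50 recovered reads and condition means that differed by at least 1 on the log2 scale. They were thus selected for differing between conditions. Of 437 such genes other than Ctgf, Egr2 (Pearson r 0.98) and Egr1 (r 0.97), both immediate early transcription factor genes, were nearest to Ctgf. Egr1 was at 6.78 and 6.08 RPKM in vehicle, at 3.12 and 4.404 after PTH and at 0.873 and 1.55 after YKL-05-093, so its inhibitor libraries were the lowest, as for Ctgf. Nearest to Cyr61 were Irx1 (r 0.99) and Dlx5 (r 0.99), homeobox genes, of 438 searched. Dlx5 was at 3.86 and 4.66 RPKM in vehicle, at 2.02 and 2.55 after PTH and at 1.87 and 2.17 after YKL-05-093. For Yap1, Wwtr1 and Tead1 the nearest were Gm10800, Gm10801 and Gm21738, which differed widely within the vehicle pair. Gm10800 was at 3029 and 985 RPKM in vehicle and at 748 to 885 after either treatment. Nearest to Amotl2 was Snord35a (r 0.99), at 72.5 and 30.1 RPKM in vehicle. The points share 3 conditions and 6 libraries of unequal depth, and no test is given.

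Members also varied with each other in these libraries. Tead1 and Yap1 had r = 0.97 and Tead1 and Lats2 r = 0.91 over 6 libraries, and all 3 were highest in vehicle replicate 1. Ctgf and Cyr61 had r = 0.88, with both highest in vehicle replicate 2. Amotl2 and Cyr61 had r = -0.51.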
